A study of Mus musculus with 12 samples.

Results

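DNA methylation was compared between 2 libraries of primordial germ cell-like cells induced from parthenogenetic embryonic stem cells (pESC-PGCLCs) and 2 libraries of primordial germ cells taken from embryos at embryonic day 12.5 (E12.5 PGCs). The comparison used every annotated feature that had a methylation level in all 4 libraries. These were 143141 features, out of 157326 with a level in any of the 4 and 176831 in the whole series of 12 libraries and 6 groups. The other 14185 features had a level in 1 to 3 of the 4 libraries and were not compared.

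All groups carried the C57BL6 strain label. According to the study, the pESCs came from oocytes activated without sperm, from mice carrying a β-Actin-GFP transgene, and so hold maternal chromosomes alone. They were turned into epiblast-like cells with activin A and bFGF and then into PGCLCs with BMP4, SCF, EGF and LIF for 4 days, after which cells carrying both CD61 and SSEA1 were sorted. The E12.5 PGCs were taken, by the study's account, from gonads of female embryos and selected by these surface markers or by SSEA1 on magnetic beads. Neither the number of pESC lines nor the number of embryos behind a library is given in the sources used here. The study describes the replicates as biological, and the labels do not say whether they were separate inductions or litters, so the tests measure the spread between these libraries. Libraries of E9.5 PGCs, of PGCLCs induced from female embryonic stem cells (ESC-PGCLCs), and of the ESC and pESC lines themselves served for description and, for the first 2 of these, for the estimate of spread.

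Methylation was read by reduced representation bisulfite sequencing (RRBS), in which the enzyme MspI cuts at CCGG and bisulfite spares methylated cytosines. A level is the share of CG calls in a feature that were methylated, printed here in percent, and a difference is pESC-PGCLC minus E12.5 PGC in percentage points. The levels come with no read counts. Depth is therefore unknown for every feature, and no interval for counting error can be given.

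As background, PGCs are the embryonic precursors of eggs and sperm. They lose most DNA methylation while they migrate to and colonise the gonad, partly because maintenance of methylation through replication is weakened and partly through oxidation by TET enzymes. The loss is not uniform. Imprinted control regions, CpG islands of the inactive X chromosome and promoters of germ cell genes are known to lose it later than the bulk genome, and intracisternal A particle (IAP) retroviruses keep much of it. PGCLCs made from epiblast-like cells are generally held to resemble PGCs from before or around their arrival in the gonad.

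A check of the labels came before the comparison. Both groups should lack a Y chromosome, since a parthenogenetic cell has none and the study describes the embryos as female. Gene parts on the Y chromosome outside the pseudoautosomal region nevertheless had levels in every library compared. Their number was 21 and 22 in the pESC-PGCLC libraries and 27 and 26 in the E12.5 PGC libraries, against 2 and 3 in the pESC libraries. The E9.5 PGC libraries had 28 and 25 such parts and the ESC-PGCLC libraries 25 and 23. For Uty, a histone demethylase gene, the intron level was 80.1% and 82.2% in pESC-PGCLCs and 74.4% and 70.7% in E12.5 PGCs, while the pESC libraries had no Uty level. Kdm5d, another Y-linked demethylase gene, had an exon level of 81.9% and 81.5% in pESC-PGCLCs and 66.4% and 83.2% in E12.5 PGCs, and again none in pESCs. Because all 4 libraries show these features, no result can be given without the libraries that hold them. The part of Y-bearing DNA in the results was not tested, and the group names used throughout are those of the labels.

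The files hold no expression, so cell identity could be described only through promoter methylation. Promoters of some germ cell marker genes were methylated in both groups, and those of others were near 0 in both. Dazl, an RNA-binding regulator of germ cells, had 44.7% and 45.4% in pESC-PGCLCs against 46.0% and 43.4% in E12.5 PGCs. Ddx4, the helicase Vasa, had 45.6% and 41.6% against 46.2% and 46.4%. Near 0 were Tfap2c, with 1.90% and 2.65% against 2.68% and 2.64%, and Itgb3, with 2.22% and 2.61% against 3.22% and 3.10%. Nanos3 was low as well, with 4.59% and 2.58% against 2.44% and 1.70%. Dppa3, Kit and Pou5f1 lay between these and Dazl. The marker promoters of the gonadal soma were mostly unmethylated in both, and 10 of the 11 measured differed by 1.16 points or less. The exception, Amhr2, is given below.

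The features with the largest separation between the groups included CpG islands, which are stretches rich in CG sites that are usually unmethylated. Some are printed here so that the CG sites behind the values can be seen. Capitals mark each CG, everything is from the plus strand of GRCm38, and for islands over 300 bases the first 300 are shown. The first 3 had the largest rises among the named islands with a level in pESCs, the next pair had the largest falls among those named, and the last 3 lie in imprinted loci and are taken up with the imprints.

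Island beside Hoxb4, chr11:96314540-96314839: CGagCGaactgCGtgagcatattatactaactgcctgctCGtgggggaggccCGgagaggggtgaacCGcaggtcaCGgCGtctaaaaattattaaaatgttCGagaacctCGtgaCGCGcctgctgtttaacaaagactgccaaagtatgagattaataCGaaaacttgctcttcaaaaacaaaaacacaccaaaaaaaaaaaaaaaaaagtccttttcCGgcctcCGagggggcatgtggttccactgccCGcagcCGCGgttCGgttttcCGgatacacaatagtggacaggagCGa

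Island in the predicted gene Gm20388, chr8:121468777-121469029: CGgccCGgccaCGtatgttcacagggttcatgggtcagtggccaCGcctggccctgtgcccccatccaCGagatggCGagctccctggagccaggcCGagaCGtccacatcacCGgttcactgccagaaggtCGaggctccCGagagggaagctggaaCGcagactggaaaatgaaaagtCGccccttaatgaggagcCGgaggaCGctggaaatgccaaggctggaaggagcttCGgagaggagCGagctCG

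Island in Rbm15b, chr9:106885070-106885275: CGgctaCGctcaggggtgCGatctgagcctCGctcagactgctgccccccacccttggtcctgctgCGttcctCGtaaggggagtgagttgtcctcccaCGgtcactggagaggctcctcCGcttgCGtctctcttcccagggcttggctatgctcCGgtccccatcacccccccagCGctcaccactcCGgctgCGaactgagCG

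Island in Iqsec1, chr6:90905568-90905867: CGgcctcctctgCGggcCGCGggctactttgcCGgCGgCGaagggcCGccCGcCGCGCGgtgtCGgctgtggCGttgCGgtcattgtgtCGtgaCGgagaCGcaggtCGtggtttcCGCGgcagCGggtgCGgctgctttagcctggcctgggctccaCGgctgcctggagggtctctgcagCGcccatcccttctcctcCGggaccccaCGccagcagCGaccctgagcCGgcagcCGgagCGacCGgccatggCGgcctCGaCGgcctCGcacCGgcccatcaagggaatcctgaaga

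Island on chromosome 12, chr12:21778297-21778596: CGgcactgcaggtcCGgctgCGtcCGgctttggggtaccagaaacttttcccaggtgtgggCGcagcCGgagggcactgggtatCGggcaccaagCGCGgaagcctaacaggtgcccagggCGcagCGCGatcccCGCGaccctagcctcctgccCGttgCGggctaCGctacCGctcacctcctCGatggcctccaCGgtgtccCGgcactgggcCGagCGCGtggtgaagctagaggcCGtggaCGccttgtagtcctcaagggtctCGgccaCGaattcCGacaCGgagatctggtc

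Peg10 island, chr6:4747209-4747508: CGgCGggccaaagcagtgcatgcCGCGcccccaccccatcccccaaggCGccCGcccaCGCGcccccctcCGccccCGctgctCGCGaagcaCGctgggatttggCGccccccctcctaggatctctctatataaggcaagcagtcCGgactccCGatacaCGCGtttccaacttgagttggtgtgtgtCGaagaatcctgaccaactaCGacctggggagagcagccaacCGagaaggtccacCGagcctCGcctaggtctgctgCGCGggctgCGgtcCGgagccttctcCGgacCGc

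Kcnq1ot1 island, chr7:143295405-143295704: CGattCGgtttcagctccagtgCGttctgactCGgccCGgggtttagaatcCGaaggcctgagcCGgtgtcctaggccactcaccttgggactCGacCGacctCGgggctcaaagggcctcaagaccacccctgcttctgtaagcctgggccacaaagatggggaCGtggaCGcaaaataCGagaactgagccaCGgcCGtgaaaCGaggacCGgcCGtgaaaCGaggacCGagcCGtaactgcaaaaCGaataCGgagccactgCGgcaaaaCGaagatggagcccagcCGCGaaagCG

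Airn island, chr17:12741441-12741740: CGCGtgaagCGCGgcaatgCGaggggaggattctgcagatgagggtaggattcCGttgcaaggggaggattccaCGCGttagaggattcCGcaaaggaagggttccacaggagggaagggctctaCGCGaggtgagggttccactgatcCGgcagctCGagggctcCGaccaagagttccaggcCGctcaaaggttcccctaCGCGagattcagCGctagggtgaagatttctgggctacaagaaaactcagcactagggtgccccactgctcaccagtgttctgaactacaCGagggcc

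The Hoxb4 island held 35 CG sites in 450 bases and 7 CCGG sites, the island in Rbm15b 14 CG sites in 206 bases and 2 CCGG sites, and the Kcnq1ot1 island 41 CG sites in 420 bases and 3 CCGG sites. RRBS reads only the fragment ends near CCGG, so a level stands for the CG sites close to those cuts and not for all the capitals.

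The first question was how the methylation level of the culture-derived cells compared with that of gonadal PGCs. Averaged over the 143141 features, the level was 28.7% and 28.3% in the pESC-PGCLC libraries and 25.0% and 25.4% in the E12.5 PGC libraries. The pESC-PGCLCs were thus higher by 3.36 points, with a gap of 2.98 points between the nearest replicates of the groups. The exact two-sided permutation test gave p = 0.3333, the smallest that 2 libraries against 2 allow, so no such mean can pass 0.05. Over the features with a level in both their libraries, the pESCs had a mean of 24.0%. The study did not measure methylation in the epiblast-like cells, so a loss during induction cannot be read from these levels. The single feature moved more than its replicates did. The mean absolute difference between the groups was 4.45 points, against 2.71 points between the pESC-PGCLC replicates and 2.94 points between the E12.5 PGC replicates.

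The difference had the same sign in each of the 8 feature classes, and its size followed the level of the class. Repeats, the class with the highest level, had 51.2% and 50.5% in pESC-PGCLCs and 44.5% and 44.99% in E12.5 PGCs. At 3' UTRs the levels were 45.2% and 44.6% against 38.9% and 39.4%. CpG islands and 5' UTRs stood at the other end. Islands had 5.67% and 5.62% against 5.31% and 5.54%, a gap of 0.0822 points, and 5' UTRs had 6.06% and 5.98% against 5.46% and 5.62%. Promoters lay between, with 18.5% and 18.2% against 16.1% and 16.4%. In all 8 classes both pESC-PGCLC libraries were above both E12.5 PGC libraries, with p = 0.3333 by the exact permutation test in each.

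**Figure D1:**
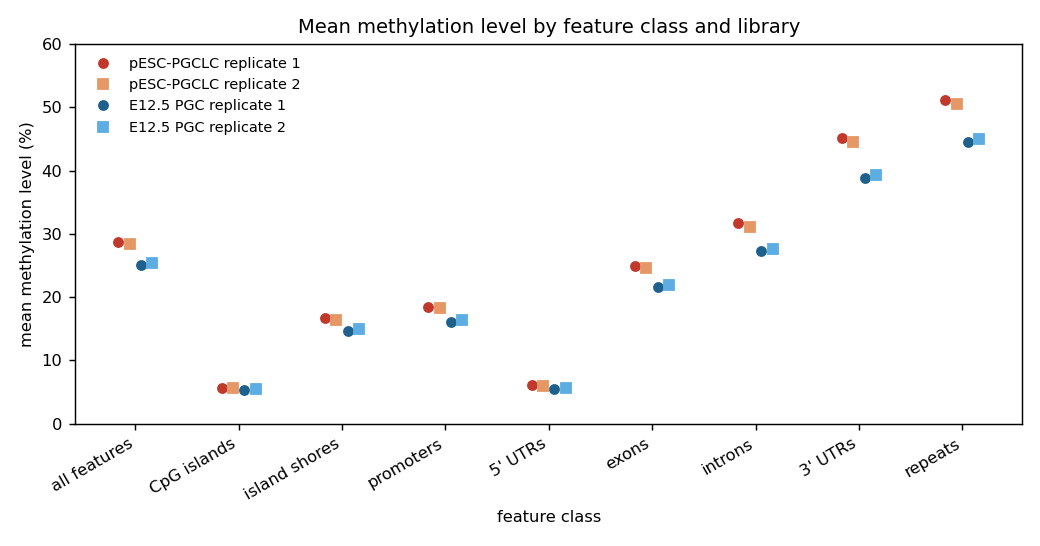
Mean methylation level in percent (vertical axis, from 0) for all features and for each feature class (horizontal axis), with 1 point for each of the 4 libraries. Both pESC-PGCLC points lie above both E12.5 PGC points in each class, by 6.08 points on average at repeats and 0.221 points at CpG islands.

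The same features were then ordered by their level in E9.5 PGCs, libraries that the comparison did not use. Features at 5% or less in E9.5 PGCs overlapped between the groups, with 2.44% and 2.36% in pESC-PGCLCs and 2.24% and 2.36% in E12.5 PGCs. From there the distance between the groups widened. Features between 40% and 60% in E9.5 PGCs had 39.9% and 39.2% in pESC-PGCLCs and 34.3% and 34.6% in E12.5 PGCs. Those above 80% had 65.9% and 65.4% against 58.5% and 59.3%. Set against the mean level of E9.5 PGCs as a whole, pESC-PGCLCs stood at 76.0% and E12.5 PGCs at 67.0%. The pESC-PGCLCs do not descend from E9.5 PGCs, so for them this share compares levels and does not measure a loss. That share in E12.5 PGCs was 72.3% at CpG islands and 63.7% at exons, and in pESC-PGCLCs 75.0% and 72.5%.

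**Figure D2:**
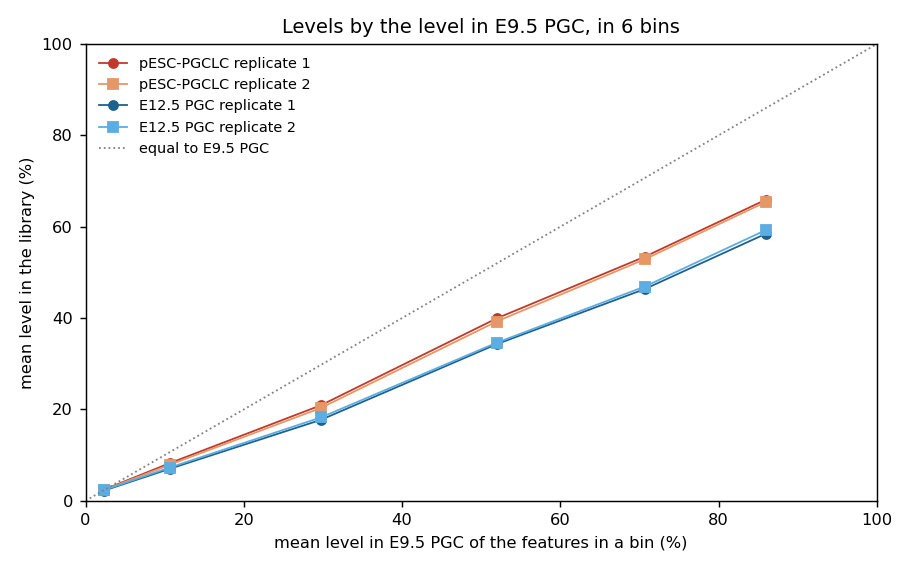
Mean level in each library (vertical axis, percent) against the mean level in E9.5 PGCs (horizontal axis, percent) for features in 6 bins of the E9.5 level, with lines joining the bins of a library. All 4 lines stay below the dotted line of equality from the second bin on, and the pESC-PGCLC lines run above the E12.5 PGC lines, by 6.80 points in the highest bin.

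Features were next tested one by one with limma on the log2 odds of the level, with Benjamini-Hochberg adjustment over all 143141, and a call required an adjusted p below 0.05 together with a difference of 10 points or more. By this rule 9730 features, or 6.80%, differed. Of these, 9308 (6.50% of those tested) were higher in pESC-PGCLCs and 422 (0.295%) were lower. An unadjusted p under 0.05 was reached by 43193 features. The count rests on the spread borrowed from the other PGC and PGCLC libraries and on each library. With the 4 compared libraries alone it was 15, and without a single library it fell to between 9 (without pESC-PGCLC replicate 1) and 1171 (without E12.5 PGC replicate 2), with 217 without pESC-PGCLC replicate 2 and 380 without E12.5 PGC replicate 1. Single calls below are therefore best read with the values of the 4 libraries printed beside them.

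A general shift between the libraries also bears on the direction of the calls. The median log2 odds of a library was 0.32 higher in pESC-PGCLCs. After subtraction of each library's median, 773 calls were left, of which 71.15% were higher, in place of 95.66%. Against that shift 37.7% of all features were higher.

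The called features were described in the groups that did not enter the contrast. Over the 8201 higher features with a level in all 12 libraries, the mean was 67.7% in E9.5 PGCs, 57.5% in ESC-PGCLCs, 53.6% in pESC-PGCLCs, 52.1% in pESCs and 39.2% in E12.5 PGCs. Over the 362 lower features it was 67.6% in E9.5 PGCs, 37.4% in ESC-PGCLCs, 34.7% in pESC-PGCLCs, 21.8% in pESCs and 53.0% in E12.5 PGCs. Both sets thus had a like level at E9.5 and a very different one in the stem cells. Over the 124748 uncalled features with a level in all 12 libraries, E9.5 PGCs had 34.2%, ESC-PGCLCs 27.7% and pESC-PGCLCs 25.6%. E12.5 PGCs had 23.2% there and pESCs 21.7%. E9.5 PGCs were above both compared groups at 94.8% of the higher features and 87.9% of the lower ones. ESC-PGCLCs were nearer to pESC-PGCLCs than to E12.5 PGCs at 98.9% of the higher and 82.4% of the lower features. The called features were selected by their difference between the compared groups. These shares therefore describe the selected features only, and none is given for uncalled features.

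Genes offer a closer view of where the calls fell. Among 26976 genes with a tested part, 3718 had at least 1 called promoter, UTR, exon or intron. In 3103 of them it was a single part, in 93 it was 3 or more, and 7 genes had parts called in both directions. Parts of a gene overlap and can rest on the same reads, so several calls in 1 gene are not independent. Snrpn, an imprinted gene, was among 13 gene names with 4 or more called parts.

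Of 19353 promoters, 969 (5.01%) were called higher and 51 (0.264%) lower. The promoters named here are those with the widest gap between the groups, and coordinates give the gene's span in GRCm38. Frem1 (ENSMUSG00000059049, chr4:82897920-83052339, minus strand), which encodes a basement membrane protein, had 48.6% and 45.4% in pESC-PGCLCs against 15.5% and 15.1% in E12.5 PGCs. Tiam1 (ENSMUSG00000002489, chr16:89787111-90143769, minus strand), an activator of the small GTPase Rac, had 52.5% and 46.1% against 15.7% and 18.4%. Cdhr5 (ENSMUSG00000025497, chr7:141269083-141276786, minus strand), a cadherin of the intestinal brush border, had 47.7% and 41.5% against 13.3% and 13.3%. In these 3 promoters the groups were separated by over 20 points and E9.5 PGCs were higher still, at 69.7%, 65.9% and 54.7%.

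Acsm3 (ENSMUSG00000030935, chr7:119760923-119787513, plus strand), an acyl-CoA synthetase gene, had the smallest standard error of the 8 promoters named as higher. Its levels were 48.4% and 48.4% against 22.9% and 21.5%, a log2 odds difference of 1.67 with a standard error of 0.0977 and an adjusted p of 0.00635. Hcar1 (ENSMUSG00000049241, chr5:123876736-123880020, minus strand), the lactate receptor, had 61.8% and 65.5% against 31.0% and 28.1%. Bco1, a carotenoid-cleaving enzyme, had 41.2% and 50.6% against 14.4% and 10.8%. Calml4, a calmodulin-like gene, went from near 0 in E12.5 PGCs to a middle level, with 32.2% and 30.8% against 2.59% and 4.94%. Ptafr, the receptor of platelet-activating factor, had 71.6% and 70.9% against 41.4% and 43.9%. All 8 had adjusted p between 0.00635 and 0.0335.

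Promoters lower in pESC-PGCLCs were fewer, and pESCs were below E12.5 PGCs at all 5 named. Trim17 (ENSMUSG00000036964, chr11:58954685-58973098, plus strand), an E3 ubiquitin ligase gene, had 12.7% and 10.04% in pESC-PGCLCs against 41.5% and 44.9% in E12.5 PGCs, with 3.49% in pESCs. Ccdc124 had 23.9% and 23.4% against 57.5% and 59.6%, with 14.1% in pESCs. Its island shore gave the same values, since the features overlap. Carnmt1 (ENSMUSG00000024726, chr19:18670764-18707200, plus strand), the carnosine methyltransferase, had 3.29% and 5.56% against 40.5% and 33.9%, and there the level in pESCs was 21.3%. Fmn2, a formin needed for spindle movement in oocyte meiosis, had 52.6% and 56.0% against 72.2% and 70.5%. Ifrd2 had 44.2% and 43.7% against 61.1% and 58.0%. The groups did not overlap at any of the 5 promoters, and their adjusted p lay between 0.00742 and 0.0376.

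CpG islands were seldom called. Of 13921, 73 (0.524%) were higher and 17 (0.122%) lower, below the shares over all features. The island beside Hoxb4, a homeobox gene of the Hoxb cluster, lies 3278 bp from the start of that gene in no annotated gene. It had 38.5% and 40% in pESC-PGCLCs against 2.01% and 1.67% in E12.5 PGCs, a log2 odds difference of 4.51 with a standard error of 0.126 and an adjusted p of 0.00653. The pESCs had 29.3% there and the ESCs 27.6%, while E9.5 PGCs had 5.29% in the 1 library with a level, near E12.5 PGCs. The island in Rbm15b, which encodes an RNA-binding protein, had 37.2% and 34.9% against 11.6% and 14.7%. The island in Gm20388 on chromosome 8 had 56.5% and 55.1% against 27.2% and 28.3%. Unlike at the Hoxb4 island, E9.5 PGCs were higher than both groups at the other two, with 57.5% in Rbm15b and 76.6% in Gm20388.

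An island overlapping an exon of Disp1, a gene needed for the release of Hedgehog ligands, at chr1:183088463-183089219 had 93.7% and 84.8% against 38.3% and 49.8%. Its shore and the Disp1 exon class rose with it, from largely shared sequence. An intronic island of Spata5 at chr3:37481328-37481728 had 66.2% and 80.1% against 25.8% and 38.1%. On the X chromosome an island over the pseudogene Rpl7a-ps12 at chrX:152909951-152910194 had 90.8% and 87.5% against 52.0% and 63.6%. The spread between replicates was wide at these 3 islands, up to 13.9 points, and none of the 3 had a level in both pESC libraries. Reads from a pseudogene can be hard to tell from those of its parent gene, so that value is uncertain.

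The 4 islands named as lower included 2 over pseudogenes or predicted genes. The island in an intron of Iqsec1 overlaps the pseudogene Ppp1r2-ps2 and had 51.9% and 43.4% in pESC-PGCLCs against 81.6% and 78.8% in E12.5 PGCs. The island over the predicted gene Gm13736, at chr2:87526008-87526220, had 6.92% and 9.73% against 27.2% and 25.0%. The island on chromosome 12 lies in no annotated gene and had 8.84% and 8.18% against 26.6% and 30.2%. The island in an exon of Lrp8, the apolipoprotein E receptor 2 gene, at chr4:107846211-107846613 differed from the other 3. It had 18.04% and 18.01% against 36.3% and 33.9%, and E9.5 PGCs, at 14.98%, were lower than E12.5 PGCs.

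Among the named gene parts the greatest fall was in the exons of Flt3, a receptor tyrosine kinase gene of blood progenitors, with 0.840% and 2.33% in pESC-PGCLCs against 63.6% and 70.8% in E12.5 PGCs. ESC-PGCLCs had 1.24% there and pESCs 9.80%. The exons of Syt3, a synaptotagmin gene, had 10.8% and 11.2% against 40% and 75%, so the E12.5 PGC replicates lay far apart. The exons of Hsd17b7, a gene of sterol synthesis, rose, with 54.1% and 64.8% against 20.6% and 20.7%.

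At introns the named rises came from near 0. Epb42, a gene of the red cell membrane skeleton, had 43.7% and 48.1% against 0.775% and 3.57%. Acadl, a gene of fatty acid oxidation, had 36.4% and 36.6% against 2.48% and 1.54%, a log2 odds difference of 4.27 with a standard error of 0.215 and an adjusted p of 0.00605. In both introns E9.5 PGCs were also near 0, at 0% and 2.29%, while pESCs had 58.9% and 52.6%. At most of the higher features, in contrast, E9.5 PGCs were above both groups. A count of 29 of the 9224 higher features with an E9.5 level had a lower level in E9.5 PGCs than in both compared groups, and 455 lay between.

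Introns named as lower were those of Gtsf1 and Fchsd1. Gtsf1 encodes a factor that works with PIWI proteins in silencing transposons. Its intron level was 20.5% and 19.2% in pESC-PGCLCs against 52.8% and 51.8% in E12.5 PGCs, with 74.4% in E9.5 PGCs and 4.86% in pESCs. Fchsd1 had 21.8% and 20.8% against 54.0% and 54.9%. Both kept a gap of over 30 points between the groups.

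At 5' UTRs, Mesp2, a transcription factor gene of somite formation, had 31.1% and 35.3% against 2.46% and 3.55%. Lin28a, an RNA-binding regulator of let-7 that PGC formation needs, fell, with 4.79% and 4.97% against 22.6% and 27.9%. Reg2 fell as well, with 31.4% and 42.5% against 60.6% and 59.9%. At 3' UTRs, Fanca, of the Fanconi anaemia repair pathway, had 53.7% and 56.7% against 19.6% and 21.6%, and Sesn1, a stress-induced regulator of growth signalling, had 55.6% and 52.6% against 10.3% and 21.2%. The 3' UTR of Tmem178 fell by 24.8 points. At shores a region at chr9:89066901-89068901, 23934 bp from Trim43b, rose from 8.08% and 11.3% to 46.6% and 53.5%. A shore in the Pcdhg cluster, whose genes encode protocadherins, fell, with 7.58% and 10.8% against 46.4% and 50.0%.

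Imprinted genes were examined as a group, because a parthenogenetic cell carries the maternal imprint on both chromosomes, whereas a gonadal PGC is in the course of losing it. The list of maternally methylated loci held 25 genes, of which 17 had a promoter level in all 4 libraries. Their mean was 41.0% and 42.2% in pESC-PGCLCs and 31.8% and 34.1% in E12.5 PGCs, a difference of 8.68 points with p = 0.3333 by the exact permutation test. The median difference was 8.46 points, against 0.341 over all promoters and 5.80 over the 5570 promoters between 40% and 90% in E9.5 PGCs. The difference was above 0 at 15 of 17. Relative to the shift between libraries, 9 of 17 (52.9%) were higher. That share was 27.2% over all promoters but 53.0% over the promoters between 40% and 90% in E9.5 PGCs, and so no larger in the list than at promoters of like level.

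Of these promoters, 4 of 17 were called and all were higher, against 5.01% of all promoters and 15.4% of those between 40% and 90% in E9.5 PGCs. Snrpn (ENSMUSG00000102252, chr7:59982495-60140219, minus strand), at the Prader-Willi locus, had 66.2% and 70.0% in pESC-PGCLCs against 41.7% and 48.1% in E12.5 PGCs. Peg13 (ENSMUSG00000106847, chr15:72805600-72810324, minus strand), a noncoding RNA gene inside Trappc9, had 65.3% and 66.7% against 42.5% and 39.1%. The neighbours Peg10, a retrotransposon-derived gene, and Sgce, which encodes a sarcoglycan, share a start region and gave like values, with 41.8% and 40.5% against 27.7% and 31.5% at Peg10. Their adjusted p lay between 0.0156 and 0.0365, and 8 of the 17 had an unadjusted p under 0.05. With libraries centred on their median, with the 4 compared libraries alone or without any 1 library, 0 of the 4 were called.

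**Figure D3:**
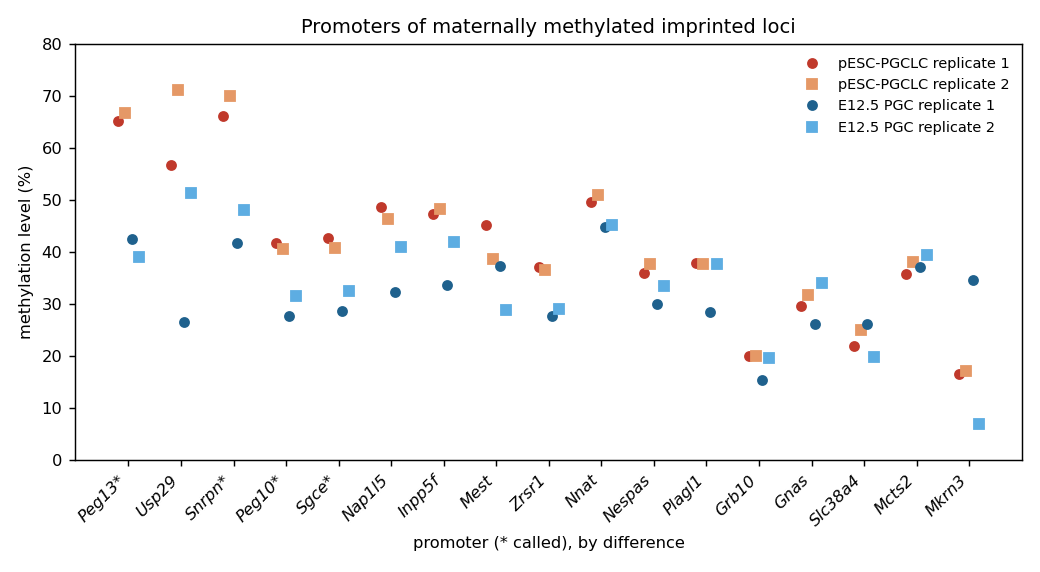
Promoter methylation level in percent (vertical axis, from 0) of the 17 measured genes of the maternally methylated list (horizontal axis, ordered by difference), with 1 point per library and an asterisk at called promoters. Snrpn and Peg13 have both pESC-PGCLC points above 65% and both E12.5 PGC points below 50%, whereas at Mcts2, Slc38a4 and Gnas the points of the groups interleave.

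The other members spanned the range between these and no difference. Usp29, beside Peg3, had 56.7% and 71.1% against 26.5% and 51.4%, a difference of 24.9 points that did not pass, with replicates far apart (adjusted p = 0.230). Zrsr1, a retrogene in Commd1, passed the p threshold but differed by 8.46 points, with 37.0% and 36.6% against 27.7% and 29.0%. Mcts2 and Mkrn3 had a difference below 0. At Mkrn3 the E12.5 PGC libraries had 34.5% and 6.96%, on either side of 16.4% and 17.1% in pESC-PGCLCs.

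Other parts of the same genes added 8 calls, all higher. The Snrpn exons had 60.3% and 56.4% against 33.3% and 35.1%. Peg3, a zinc finger gene expressed from the paternal copy, had 65.4% and 65.8% in its exons against 47.2% and 47.7%. In the Peg3 exons ESC-PGCLCs had 69.4%, ESCs 67.3% and pESCs 71.6%. Kcnq1ot1, the noncoding RNA of the Kcnq1 domain, had 56.5% and 57.3% against 41.6% and 37.3% in its exon class. Mest and Cdh15 exons were called too. At the Cdh15 exons ESCs and pESCs lay close, at 67.4% and 66.1%. Of the 71 measured parts of listed genes, 12 were called higher and 0 lower, while 6.50% of all features were called higher. That share was 7.50% over features between 40% and 60% in E9.5 PGCs and 14.9% over those between 60% and 80%. Parts among the 12 overlap, and the Snrpn exons and 5' UTR had the same values.

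Islands at the same loci were examined as well. Of 27 islands in or within 2000 bp of a listed gene, 13 were at least 15 points higher in pESCs than in ESCs. This split was chosen after the values were seen and is a description. Over these 13 the mean was 48.2% in pESC-PGCLCs, 37.9% in E12.5 PGCs, 49.6% in pESCs and 14.8% in ESCs. The ESC level ran from 1.17% at a Zrsr1 island to 36.0% at the Peg13 island, and the cause of the distance between pESCs and ESCs was not tested. Where measured, ESC-PGCLCs had 43.3% at these islands, also above E12.5 PGCs, and E9.5 PGCs had 59.1%. The median difference of the 13 between pESC-PGCLCs and E12.5 PGCs was 10.3 points, and 12 of the 13 were above 0. In the other 14 the median difference was -0.127 points and 6 were above 0. Those 14 include the Peg3 island, which could not be sorted because 1 ESC library had no level, and which had the largest difference of the 27, 24.9 points (adjusted p = 0.230 by limma). They also include the Cdh15 island, with 60.1% and 58.3% against 42.3% and 48.9%. Over all islands it was 0.0288 points, and over the 364 islands between 40% and 80% in E9.5 PGCs it was 0.870 points.

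Of the 27 islands at these loci 3 were called, all higher, against 0.524% of all islands. Islands in general stood much lower, at a mean of 5.65% in pESC-PGCLCs, so that share is not one at like level. A share for islands of like level was not computed. Over features of all classes it was 7.50% between 40% and 60% in E9.5 PGCs and 14.9% between 60% and 80%. The Airn island, in introns of Airn and Igf2r, had 58.0% and 59.1% in pESC-PGCLCs against 42.2% and 41.4% in E12.5 PGCs, with 63.0% in pESCs and 2.05% in ESCs. The Kcnq1ot1 island had 57.5% and 58.2% against 42.1% and 37.2%, with 70.9% in pESCs. The Peg10 island had 42.7% and 40.8% against 28.6% and 32.4%, with 37.4% in pESCs. E9.5 PGCs had 63.5% at the Airn island and 62.7% at the Kcnq1ot1 island, above both groups. ESC-PGCLCs had 45.2%, 46.7% and 35.1% at the Airn, Kcnq1ot1 and Peg10 islands. In the limma contrast with ESC-PGCLCs, described below, the adjusted p of these islands were 0.118, 0.137 and 0.218. Grb10, whose island had 36.4% and 41.8% against 40.2% and 42.0%, was the 1 island of the 13 with a difference below 0.

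Paternally methylated loci gave no call. Of 8 listed genes, 6 had a promoter level, 2 of them had an unadjusted p under 0.05 and 0 were called by limma. The mean over the 6 was 15.6% and 14.9% in pESC-PGCLCs and 14.0% and 15.3% in E12.5 PGCs, so the groups overlapped, and without E12.5 PGC replicate 1 the difference turned below 0. H19, the noncoding RNA beside Igf2, had 55.2% and 47.8% against 41.0% and 47.8%. Meg3, the noncoding RNA of the Dlk1 domain, had 29.6% and 32.2% against 36.0% and 36.8%, with an adjusted p of 0.0929. The promoters of Igf2, Dlk1, Rasgrf1 and Zdbf2 were all under 3.5% in both groups.

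Germ cell genes were taken next. Promoters of many of them are methylated until the PGC stage and their loss of methylation accompanies their expression, as background. Of 52 listed genes of germ granules, piRNA and meiosis, with Dazl, 30 promoters were measured. Their mean was 36.5% and 35.3% in pESC-PGCLCs and 32.9% and 33.4% in E12.5 PGCs, a difference of 2.73 points with p = 0.3333 by the exact permutation test. The difference was above 0 at 25 of 30 with a median of 1.82 points, and limma called 0. Over all promoters, counted once per gene name, 12723 of 19306 were above 0. Relative to the shift between libraries, 7 of 30 (23.3%) were higher. That share was 27.2% over all promoters. Over promoters between 40% and 90% in E9.5 PGCs it was 53.0%, and their median difference was 5.80 points. An unadjusted p below 0.05 was reached at 1 of the 30, Msh5. Over all promoters 5.01% were called higher.

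In the germ granule and piRNA list, 10 of 22 promoters were measured. Piwil2, a PIWI protein gene, had 45.4% and 44.98% against 44.2% and 44.998%. Mael, a piRNA pathway gene, had 44.9% and 44.8% against 43.0% and 42.1%. Fkbp6, a chaperone of that pathway, had 60.9% and 57.8% against 54.6% and 54.1% (adjusted p = 0.172). Tdrd9, a helicase gene, had the largest difference in this list, 17.9 points, but its pESC-PGCLC replicates were at 69.0% and 25%, and 1 of them equalled an E12.5 PGC value. Tdrd6 differed by 3.95 points. Parts other than promoters were called in both directions, with Mov10l1 exons and Tdrd1 introns higher and the introns of Gtsf1 and Tdrd5 lower.

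Among meiosis genes, 19 of 29 promoters were measured. Msh5, a mismatch repair homologue that stabilises meiotic crossovers, had 27.2% and 23.7% against 14.9% and 18.4%, a difference of 8.83 points with an adjusted p of 0.0399, short of 10 points. Tex101 had 70.8% and 75.3% against 70.0% and 61.2%. Meioc, which prolongs meiotic prophase, had 57.9% and 53.3% against 42.4% and 54.6%, and Taf7l differed by 4.72 points. Components of the chromosome axis differed little. Sycp2 had 48.1% and 45.1% against 45.3% and 48.0%, and Hormad1 had 66.5% and 64.9% against 64.0% and 65.0%. Called parts were the exons and introns of Syce3 and the introns of Syce1, all higher, and both genes encode central elements of the synaptonemal complex.

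Genes of germ cell identity showed no clear difference at promoters. Of 16, 8 promoters were measured, 3 of them above 0, with a median difference of -0.405 points and 0 called by limma (2 at an unadjusted p under 0.05). The mean over the 8 was 34.2% and 31.8% in pESC-PGCLCs and 32.9% and 33.2% in E12.5 PGCs, so the groups overlapped. The median difference over all promoters was 0.341 points. Against the shift between libraries 1 of the 8 was higher, and 27.2% of all promoters were. Dppa3, a regulator of methylation in the early embryo, had 28.1% and 24.8% against 32.4% and 35.0%, with 68.5% in E9.5 PGCs and an adjusted p of 0.0660. Kit, the receptor of SCF, had 39.3% and 28.3% against 28.7% and 27.0%. The reproductive homeobox genes Rhox6 and Rhox9, on the X chromosome, had 51.6% and 50.9% against 45.2% and 50.6%, and 54.3% and 52.1% against 54.8% and 52.4%. Dppa5a differed by -1.19 points.

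Pluripotency genes showed a like picture at promoters and calls elsewhere. Of 16, 14 promoters were measured, 6 above 0, with a median of -0.371 points and 0 called (1 at an unadjusted p under 0.05 by limma). Against the shift between libraries 1 of the 14 was higher. Pou5f1, the gene of OCT4, had 11.98% and 11.9% against 15.7% and 13.4%. Dppa2 had 45.1% and 42.7% against 47.1% and 48.1%. Tcl1 differed by 3.39 points and Lin28a by 3.80 points. Of 54 measured parts of the listed genes, 4 were called, in 2 genes, and all were lower, while 0.295% of all features were called lower. The Lin28a exons had 33.5% and 34.6% against 47.8% and 48.0%. Zfp42, the gene of REX1, had 47.7% and 46.1% in exons against 54.8% and 59.8%, and 38.8% and 38.7% in introns against 50.0% and 47.5%.

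The enzymes and guards of methylation had 14 of 17 promoters measured, 8 above 0, a median of 0.0975 points and 0 called by limma, with 2 at an unadjusted p under 0.05. Dnmt3a, a de novo methyltransferase gene, had 26.1% and 26.6% against 19.8% and 20.3%, with an adjusted p of 0.0842. Hells, a helicase gene that assists methylation, had 37.2% and 36.7% against 42.3% and 42.6%. Dnmt3l differed by 3.82 points. Dnmt1, Uhrf1, Tet1 and Tet2 each differed by less than 1 point.

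Lists for other cell types were examined for the sake of the sort. Epiblast and mesoderm genes had 8 of 12 promoters measured, all under 4% in both groups, with differences from -0.443 points at Fgf5 to 0.708 at Eomes, and 0 were called (1 at an unadjusted p under 0.05 by limma). Gonadal soma genes had 11 of 12 measured, and 1 was called higher, against 5.01% of all promoters, so the count for the list is near that background. Amhr2 (ENSMUSG00000023047, chr15:102445367-102454633, plus strand), the receptor of anti-Müllerian hormone, had 68.0% and 76.6% against 50.6% and 51.7%, with 82.3% in E9.5 PGCs and an adjusted p of 0.0259. The 3' UTR of Emx2, a homeobox gene of the gonad, was higher as well, with 27.1% and 23.1% against 4.37% and 0.397%. Blood and endothelial genes had 5 of 8 measured and 0 called (1 at an unadjusted p under 0.05 by limma). Kdr, a VEGF receptor gene, differed by 3.66 points at its promoter and was called higher in its introns. Cells of these types and their part in the levels were not tested.

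The X chromosome was compared because random X inactivation leaves methylated islands on the inactive copy. Over 2715 X-linked features the level was 27.7% and 27.4% in pESC-PGCLCs and 25.9% and 26.5% in E12.5 PGCs, a difference of 1.29 points with p = 0.3333 by the exact permutation test. On the 19 autosomes the mean difference ranged from 1.82 to 2.70 points, so the X chromosome had the smallest. The direction turned when medians over X-linked features were compared, with -1.26 points for the X chromosome level. The median of the differences at single X-linked features was above 0, at 0.290 points. X-linked features were called higher at 3.06% and lower at 0.147%, against 4.79% and 0.199% of autosomal features.

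Within the X chromosome the classes differed in sign. The 359 X-linked islands had 16.3% and 16.4% in pESC-PGCLCs against 16.8% and 17.4% in E12.5 PGCs, and the 301 X-linked 5' UTRs had 17.5% and 17.8% against 18.2% and 18.8%. In both the pESC-PGCLC libraries were the lower ones. Autosomal islands went the other way, with 5.37% and 5.31% against 4.99% and 5.20%. X-linked introns, with 37.9% and 37.3% against 34.0% and 34.8%, and X-linked exons followed the autosomes. The pESCs had 3.86% at X-linked islands. With Y-linked features present in all 4 libraries, the number of X chromosomes in the cells cannot be told from these levels.

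**Figure D4:**
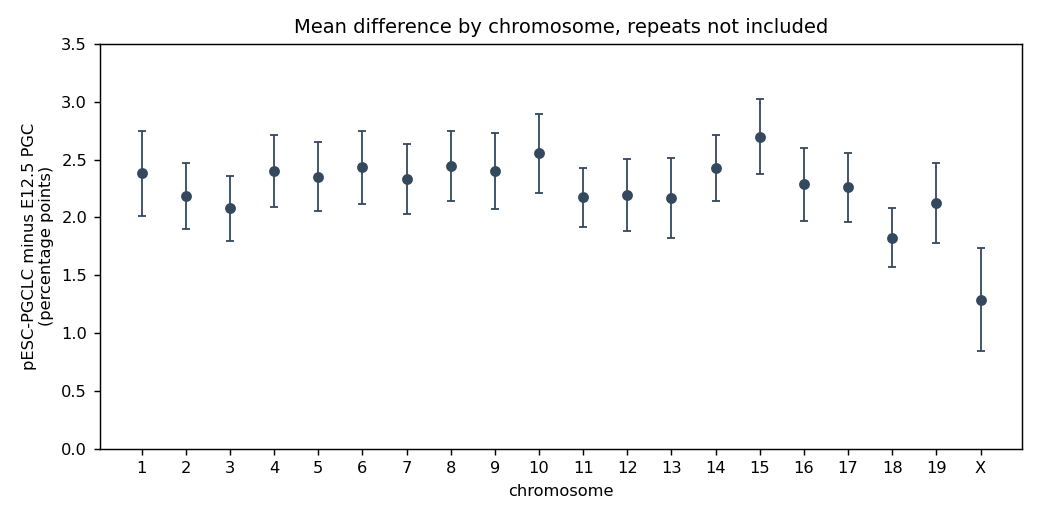
Mean difference, pESC-PGCLC minus E12.5 PGC in percentage points (vertical axis, from 0), over the features of each chromosome (horizontal axis). Repeats have no position and are not included. Points are differences of group means and bars run from the lowest to the highest difference between single libraries of the groups. The X chromosome has the lowest point, 1.29, and chromosome 15 the highest, 2.70.

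Genes tied to X inactivation or known to escape it had 10 of 12 promoters measured, with 0 called and 0 at an unadjusted p under 0.05 by limma. Rlim, which promotes Xist expression, had 37.1% and 40.3% against 32.8% and 34.5%. Ftx, a noncoding gene of the inactivation centre, had 22.6% and 11.1% against 9.35% and 7.83%. Mid1, which lies at the pseudoautosomal boundary, differed by 3.05 points and Kdm5c by 0.695. The escape genes Kdm6a, Eif2s3x and Ddx3x were under 3% in all 4 libraries.

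Repeats held nearly as many calls as all other features together. A repeat feature in the files is an element name with the first and last base of its consensus that a copy covers, so copies with the same bounds share a level and no genome position is given. Of 40540 such segments, 4440 (11.0%) were called higher and 219 (0.540%) lower. Young retrotransposons map poorly to single places, and the authors kept unique best alignments, which limits what is seen of them.

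IAP elements had the highest levels. Their long terminal repeats had 66.7% and 65.7% in pESC-PGCLCs and 58.6% and 59.9% in E12.5 PGCs over 265 segments, and their internal parts 68.0% and 67.3% against 61.1% and 61.0% over 648. Relative to E9.5 PGCs the internal parts stood at 87.6% in pESC-PGCLCs and 79.1% in E12.5 PGCs, more than any other of the 14 families examined. ETn and MusD elements had 64.8% and 63.5% against 57.2% and 58.8%. MERVL, the retrovirus active at the 2-cell stage, and its MT2 repeats had 49.8% and 48.5% against 42.4% and 43.7%.

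Short and old elements stood lower than IAP elements in both groups. B1 elements had 46.4% and 45.7% against 41.0% and 41.6%, and B2 elements 48.1% and 48.0% against 42.5% and 42.9%. The ancient L2 and MIR elements, long unable to move, had 42.6% and 42.0% against 35.2% and 35.6%. Relative to the E9.5 level they stood at 73.6% and 61.6%. Ancient L1M elements had the largest family difference, 8.07 points. In all 14 families both pESC-PGCLC libraries were above both E12.5 PGC libraries, and the family differences ran from 4.75 points at B1 to 8.07 points.

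Young L1 elements, the L1MdA, L1MdTf and L1MdGf groups that include the mobile LINE elements of the mouse, were the exception in their calls. They made up 20.9% of the repeat segments tested and 15.3% of those called higher, but 54.3% of the 219 called lower. As a family they had 54.8% and 54.2% in pESC-PGCLCs against 49.1% and 49.5% in E12.5 PGCs. Many of the segments called lower shared a position. Of the 119 young L1 segments called lower, 96 began within the first 300 bases of the consensus, the end that holds the promoter. The 1987 segments that begin there had 63.3% and 63.0% against 60.9% and 61.4%, a difference of 1.99 points, while those that begin at bases 301 to 1000 differed by 6.57 points and those beginning after base 5000 by 6.03 points. The first of these sets had 5.59% called higher and 4.83% lower, against 14.6% and 0.768% in the second. Of the 1987 segments, 1369 also reached base 5500 or beyond, and these differed by 1.53 points. Position was thus linked to length, and the parts of position, length and element name were not separated.

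The element names differed in turn. L1MdTf_I segments that begin in the first 300 bases had 52.8% and 53.4% in pESC-PGCLCs against 58.8% and 58.7% in E12.5 PGCs over 92 segments. L1MdTf_II segments had 54.6% and 54.9% against 59.9% and 60.5% over 139, and L1MdGf_I segments 62.7% and 62.9% against 65.9% and 66.5% over 167. In these 3 sets the pESC-PGCLCs were the lower group, with called shares of 15.2%, 12.2% and 16.8% lower and 0%, 0.719% and 1.80% higher. Single libraries of the groups differed by -6.01 to -5.30 points for L1MdTf_I. L1MdA_VI and L1MdA_VII segments with the same kind of start were higher by 7.22 and 6.76 points, as repeats in general were.

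**Figure D5:**
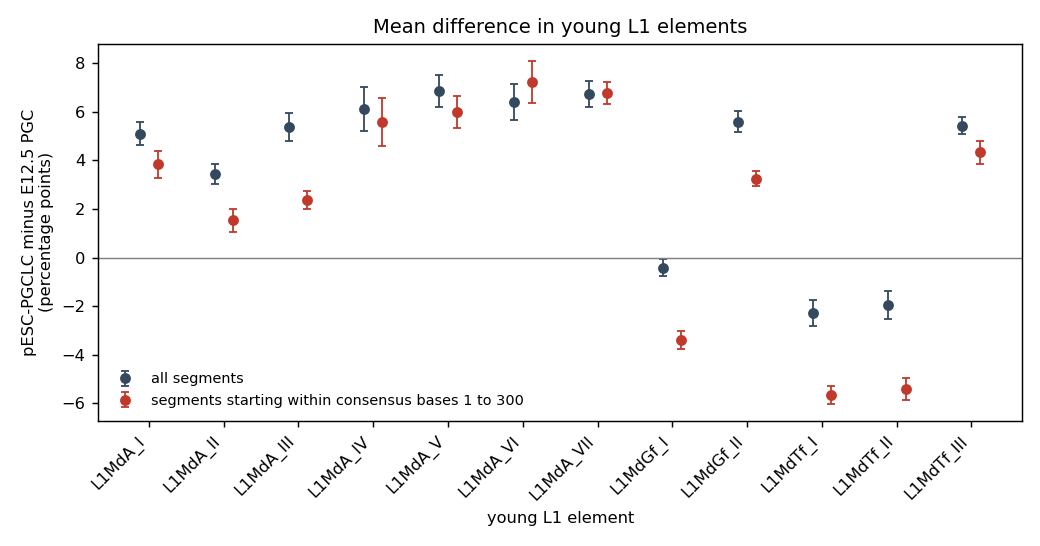
Mean difference, pESC-PGCLC minus E12.5 PGC in percentage points (vertical axis), for 12 young L1 elements (horizontal axis), over all their segments and over segments that begin within consensus bases 1 to 300. Bars run from the lowest to the highest difference between single libraries of the groups. L1MdGf_I, L1MdTf_I and L1MdTf_II lie below 0, more so for segments at the start, at -3.38, -5.65 and -5.41 points.

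The pESCs had 21.7% in the L1MdTf_I and 22.6% in the L1MdTf_II segments of this kind, against 72.5% in those of L1MdA_I, where the difference between the compared groups was 3.83 points. In L1MdGf_I segments of this kind the pESCs had 45.4%. Single segments moved further than any family. The L1MdTf_III segment from base 270 to 5586 had 71.4% and 72.6% against 17.3% and 22.2%, and the L1MdA_I segment from base 200 to 5606 had 25.2% and 28.4% against 77.1% and 83.3%. An L2b segment from base 3263 to 3370 had 90.5% and 100% against 0% and 33.3% and so a difference of 33.3 points between the E12.5 PGC replicates. An L1MdA_VI segment from base 5317 to 6361 had 35.6% and 43.8% against 85.7% and 97.1%.

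The nearest group to pESC-PGCLCs was ESC-PGCLCs, and the contrast of the 2 kinds in the same fit tests whether their distances to E12.5 PGCs, which they share as reference, differ. Of 138361 features with levels in both kinds, 124 (0.0896%) were called, 59 of them higher in pESC-PGCLCs and 65 lower, with 26581 at an unadjusted p under 0.05. Of those 124, 24 were also called between pESC-PGCLCs and E12.5 PGCs. Of the 117 listed promoters tested in this contrast limma called 0 and gave 25 an unadjusted p below 0.05. Of the 43 tested features named by rank it called 0 and gave 9 such a p. The promoters of Snrpn and Peg10 had 52.6% and 34.3% in ESC-PGCLCs, between E12.5 PGCs and pESC-PGCLCs. With untransformed levels 1753 features were called, 1573 of them lower in pESC-PGCLCs.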

How the data were processed

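The 12 RRBS libraries fall into 6 groups of 2, taken with their replicate numbers from the sample titles. According to the study and the submitters' processing notes, the authors cut genomic DNA with MspI, treated it with bisulfite and aligned reads to mm10 with Bismark 0.16.3 and Bowtie2. The deposited fraction is methylated over all CG calls of a feature, corrected by the authors for non-conversion. Their coverage minimum and promoter definition are not given in the sources used here.

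The features fall into 8 overlapping classes. Gene names and spans are from GENCODE M21, which held 30041 of 30073 gene identifiers, and sequences are from RefSeq GRCm38. All 14559 islands lay inside its chromosomes, and 100% began with CG when starts were counted from 0. They are printed counted from 1. Shore bounds are as deposited.

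The test was limma 3.58.1 (R 4.3.3). Each level, plus an offset of 0.01, was divided by 1 minus the level plus the same offset and put on the log2 scale, with the 8 PGC and PGCLC libraries sharing the spread. Residual degrees of freedom were 4 at 137202 features and 3 or 2 at 5038 and 901, where other libraries had no level. Calls needed an adjusted p under 0.05 and 10 points. Library means were compared by the exact permutation test (scipy 1.17.1). Tested on 20000 simulated features of this comparison, the fit recovered 107, 169 and 192 of 200 shifted by 1, 2 and 4 on the log2 odds scale, with 7, 6 and 5 false calls. The simulation drew normal noise, shifted features of middle level only and set all others equal between the groups. It held no general shift between libraries, so its false calls do not measure the share of false calls in the real data.

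The features compared, the gene lists and the repeat families were chosen with earlier results of these data known. Features named by rank were called ones whose replicates did not overlap, with the largest gap between nearest replicates: 8 rises and 5 falls for promoters, 6 and 4 for islands and 2 and 2 for each other class, passing over predicted genes and pseudogenes in gene parts. Called promoters of the lists and up to 4 of the largest differences in each list were named too, and other listed genes for their role. Of the features named by rank, 2 are not reported here. Alternatives were other sets of libraries, filters, offsets, scales, centring, size thresholds, the replicate number as a block and leaving out each library.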

Additional observations from a re-analysis of the deposited data

Results flagged for a closer look

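Y-linked gene parts outside the pseudoautosomal region had levels in libraries that by label and by the study's account should have no Y chromosome. They numbered 27 and 26 in E12.5 PGC replicates 1 and 2 and 21 and 22 in pESC-PGCLC replicates 1 and 2, against 1 and 3 in ESCs and 2 and 3 in pESCs. In E9.5 PGCs they numbered 28 and 25 and in ESC-PGCLCs 25 and 23, so all 8 libraries of the fit held such parts. They were flagged because they lie on a chromosome left out of the comparison by chromosome and were more numerous than in ESCs and pESCs. Those with a level in all 4 libraries are among the features compared. In pESC-PGCLCs the parts came from 17 and 18 genes, among them Uty, Usp9y, Ddx3y and Zfy1. The intron level of Usp9y was 60% and 58.2% in pESC-PGCLCs and 46.6% and 48.8% in E12.5 PGCs. The number of features shows presence and not amount, since no read counts came with the levels, and the source of this DNA was not tested.

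The contrast between pESC-PGCLCs and ESC-PGCLCs, which tests whether the kinds of PGCLC differ in their distance to E12.5 PGCs, called 124 features. They were flagged because the difference between the kinds itself passed the test. Of these, 47 were repeat segments.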

How the results depend on the processing

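The 9730 calls between pESC-PGCLCs and E12.5 PGCs depended on the fit. The count was 15 with the 4 compared libraries only, 792 with all 12 libraries, 773 with each library centred on its median, 1419 with a minimum of 20 points and 17190 with none. Leaving out 1 library gave 9 to 1171 calls. Among autosomal features outside repeats, an alternative chosen after seeing the data, the number of features called was 4975. Of the 9730, 10 were shared with the fit of 4 libraries, 791 with that of 12 and 772 with the centred fit. Of the 47 features named by rank, 45 to 47 were still called with untransformed levels, another offset, trend and robust variance or a mean level of at least 5%. That number was 37 over features with a level in all 8 libraries, 41 at 20 points, 31 after centring, 1 with 4 libraries and 0 to 27 when 1 library was left out.

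Replicate numbers are shared between the groups, but same-numbered libraries did not deviate together (correlation -0.00999), so the numbers do not pair them. With the replicate number as a block 5142 features were called, 4997 of them shared with the main fit, and 2 of the 5 called list promoters remained. The block gave 36 calls between the PGCLC kinds, and untransformed levels gave 1753, in place of 124.

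Of 203 alternative values for 29 class, chromosome, list and family means, 201 kept their direction. The X chromosome level differed by -1.26 points when medians over features were compared, against 1.29 as means. The median of the differences at single X-linked features was 0.290 points. The promoters of paternally methylated imprints differed by -0.082 points without E12.5 PGC replicate 1 and by up to 1.26 points, without E12.5 PGC replicate 2. The causes were not tested. Depth is unknown, and thinly covered features could not be set apart.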
